A study of Danio rerio with 10 samples.

Results

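Whole zebrafish embryos given a morpholino against sox19b and harvested at 4.3 h post fertilization (hpf) were compared with wild type embryos harvested at 4 hpf. The arrays were chosen by their titles: 3 of embryos labelled as Sb morphants and 2 of wild type embryos at 4 hpf, 5 of the 10 Affymetrix Zebrafish Genome Arrays of the study. The comparison asks which genes differ between the morphant and wild type embryos of a near but not identical stage. After 115 control probe sets were set aside, 15502 probe sets were tested. With 1 probe set per gene, the brightest over all 10 arrays, they stood for 8793 named genes.

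The morphants belonged to experiment 1, in which 3 batches of eggs were injected with the morpholino soon after fertilization and 3 control batches with a placebo. The control arrays, also from 4.3 hpf, carry the label wild type, and they are called control here. The wild type arrays belonged to experiment 2, which held 2 arrays at 4 hpf, after the mid-blastula transition, and 2 arrays at 2.5 hpf, before it. The strain, the dose of morpholino and the number of embryos behind each array were not stated in the sources used here. The p-values measure only the spread between these arrays.

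The early zebrafish embryo lives on RNA and protein laid down in the egg. At the mid-blastula transition transcription of the embryo's genome begins in earnest, and many egg-supplied transcripts are cleared. Sox19b, a transcription factor of the SoxB1 family, is supplied by the egg and acts with Pou5f3 and Nanog on the first zygotic genes. A morpholino is an antisense oligonucleotide that blocks its target RNA without destroying it. This one was aimed at a junction of an intron and an exon of sox19b, so that it can act on unspliced transcript alone. Its sequence, shown because it is the reagent that defines the morphants, is 25 bases long and was taken from the labels. It is written 5′ to 3′, and the capitals mark the final run of 6 A. Its place in the genome was not analysed here.
sox19b morpholino: acatttgactgtggagaggAAAAAA

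Every difference between morphant and wild type arrays is also a difference between experiments 1 and 2, and these cannot be told apart. Morphant eggs were also injected, and the embryos were harvested at 4.3 hpf, against 4 hpf for wild type. The parts of experiment, stage, injection and morpholino cannot be told apart in this comparison. The deposited values of the experiments were on different scales: the median of an array was 5.39 to 5.43 in experiment 1, against 6.15 to 6.25 in experiment 2. All 10 arrays were therefore quantile normalized together, and levels below are log2 values after that step, so that a difference of 1 is a 2-fold change. Control arrays share the morphants' experiment and stage, and their values are given beside many of the results. After joint normalization, morphant arrays correlated with each other at 0.995 to 0.996 over probe sets and with wild type 4 hpf arrays at 0.948 to 0.953, while control and wild type 4 hpf arrays correlated at 0.874 to 0.903. Control replicate 2 stood apart from the other control arrays, with a lowest correlation of 0.990. As a measure of background, the mean of the brightest of 17 tag control probe sets was 5.47 in morphants, 5.45 in controls, 5.83 in wild type at 4 hpf and 5.81 at 2.5 hpf. A gene no brighter than this in a group is called dim there. Where 1 group was dim, the fold is written as at least the ratio to that background value. The probe pairs that report RNA quality, from the 3′ and 5′ ends of actin and GAPDH, differed in log2 by 0.777 to 1.203 and by -1.307 to -1.004 in morphants, by 0.566 to 1.271 and by -1.477 to -1.075 in controls, and by 0.745 to 1.058 and by -1.787 to -1.672 in wild type at 4 hpf. On the deposited scale the actin 5′ probe set read 4.778 to 4.966 in morphants, where the brightest tag control read 4.935 to 5.397. The GAPDH 3′ probe set read 5.804 and 5.714 in wild type at 4 hpf, where that control read 6.251 and 6.521. Some of these probe sets thus lay near background, which limits what their differences say of RNA quality. The part of RNA quality in the results was not tested.

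Differences between the groups were widespread. Of the 15502 probe sets, 9057 (58.4%) were called at an adjusted p below 0.05 in limma, 4209 higher and 4848 lower in morphants. Of the 8793 genes, 2475 (28.1%) were higher and 2835 (32.2%) lower, and 569 (6.47%) and 497 (5.65%) of them by at least 2-fold. These shares are the background for each gene group below. The split depended on the scaling, with 3844 genes higher and 2798 lower after median centring. After scaling on 27 Bacillus control probe sets, 5070 were higher and 1583 lower. The mean of these probe sets after joint normalization was 5.524 to 5.552 in morphants and 5.888 to 5.925 in wild type at 4 hpf. These means were near the background values of 5.47 and 5.83. In the same model, control arrays differed from the same wild type 4 hpf arrays in 6272 genes (71.3%), 2617 higher (29.8%) and 3655 lower (41.6%), and morphants differed from controls with 27.9% of genes higher and 24% lower. Control counts in each gene group below are to be read against the 29.8% and 41.6% of all genes. The median difference over all genes was -0.04 for morphants and -0.12 for controls. Because both comparisons use the same wild type arrays, their values are given side by side and their likeness is not measured.

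**Figure D1:**
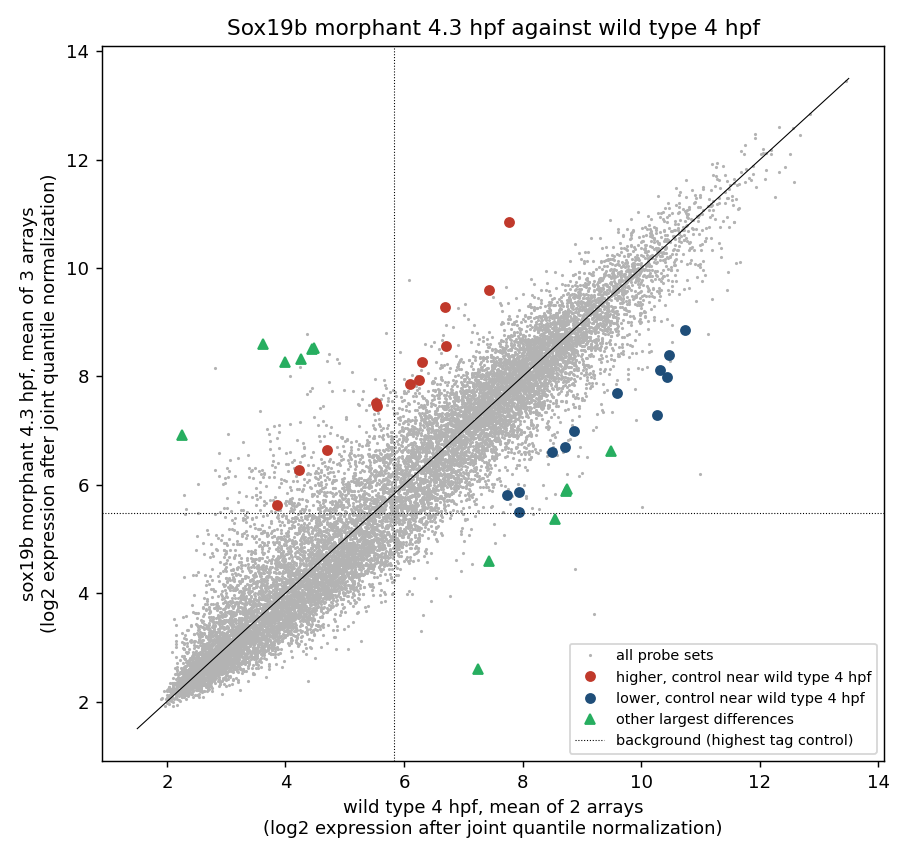
Mean log2 expression of all probe sets in the 3 sox19b morphant arrays at 4.3 hpf (vertical axis) against the 2 wild type arrays at 4 hpf (horizontal axis), both after joint quantile normalization. The diagonal marks equal levels and the dotted lines the background of each group. Red and blue points are the 12 largest differences in each direction among genes whose control mean lay within 0.5 of wild type at 4 hpf, and green triangles are the 6 largest others in each direction.

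Most of the large differences were at genes where control arrays also stood away from wild type at 4 hpf. The control mean was more than 0.5 (log2) from the wild type 4 hpf mean at 478 (84%) of the 569 genes at least 2-fold higher in morphants and at 422 (84.9%) of the 497 genes at least 2-fold lower. The genes described first are the smaller set at which the control and wild type 4 hpf means lay within 0.5 of each other. Control differences within that limit could still be called. Examples are zgc:171776 (0.50, adjusted p = 0.00111), rps4x (0.41, adjusted p = 0.00307) and e2f5 (-0.50, adjusted p = 0.0273). Of the 569 higher genes, 91 (16%) had a control mean within 0.5 of the wild type 4 hpf mean, as did 75 (15.1%) of the 497 lower genes, against 4157 (47.3%) of all 8793 genes. Of the 91 and 75 genes, 69 and 73 were also called in the same direction on within-array ranks, lay above background in the higher group and had all 3 morphant arrays on one side of both wild type arrays. Ribosomal protein and proteasome genes made up 8 of the 12 largest falls. The 12 largest rises were in genes of varied roles, 3 of them uncharacterised.

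SE is the standard error of the fitted difference between the 3 morphant and 2 wild type arrays. Among the rises, arl6ip1, which encodes a membrane-shaping protein of the endoplasmic reticulum, came first. It read 10.79, 10.93 and 10.85 in morphants, 7.80, 7.84 and 7.84 in controls and 7.70 and 7.83 in wild type at 4 hpf. Morphant arrays thus lay well above both other groups, which overlapped, by 3.09 (SE 0.09) or 8.54-fold relative to wild type (adjusted p = 4.32e-10). At 2.5 hpf it read 9.78 and 9.84. The uncharacterised gene zgc:171776 read 9.26, 9.40 and 9.21 in morphants, 7.10, 7.28 and 7.18 in controls and 6.57 and 6.81 in wild type, a rise of 2.60 (SE 0.11, adjusted p = 5.4e-09). Il13ra2, a decoy receptor of an interleukin, read 9.63, 9.45 and 9.71 in morphants, 7.53, 6.60 and 7.52 in controls and 7.39 and 7.49 in wild type, a rise of 2.16 (SE 0.22, adjusted p = 5.98e-06). Its level at 2.5 hpf, 8.89 and 8.78, was nearer to that of the morphants.

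Some of these genes were dim at 4 hpf. E2f5, a transcription factor of the cell cycle, read 7.54, 7.51 and 7.50 in morphants and was dim in controls (5.41, 4.73 and 4.94) and in wild type (5.72 and 5.33), at least 3.23-fold higher in morphants (adjusted p = 2.26e-06). It was above background at 2.5 hpf, at 6.95 and 7.31, and its other probe set also rose. Arpp21, which encodes a phosphoprotein regulated by cAMP, was at least 3.09-fold higher, at 7.49, 7.39 and 7.48 in morphants, 6.06, 5.37 and 5.61 in controls and 5.41 and 5.66 in wild type. The bound was 1.75-fold for niban2b and 1.36-fold for rab11al, a small GTPase of the Rab11 family that sorts recycling membrane. Gadd45ab, a growth arrest and DNA damage gene, read 5.96, 5.13 and 5.78 in morphants and was dim in wild type, at 3.92 and 3.79. Because its morphant mean lay below the wild type background, no fold is given. The remaining rises were 1.96 for zgc:163014, 1.85 for si:dkey-152b24.6, 1.77 for zdhhc15b, a palmitoyltransferase, and 1.69 for grb2a, an adaptor between receptors and Ras whose other probe set, at 0.29, was not called.

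**Figure D2:**
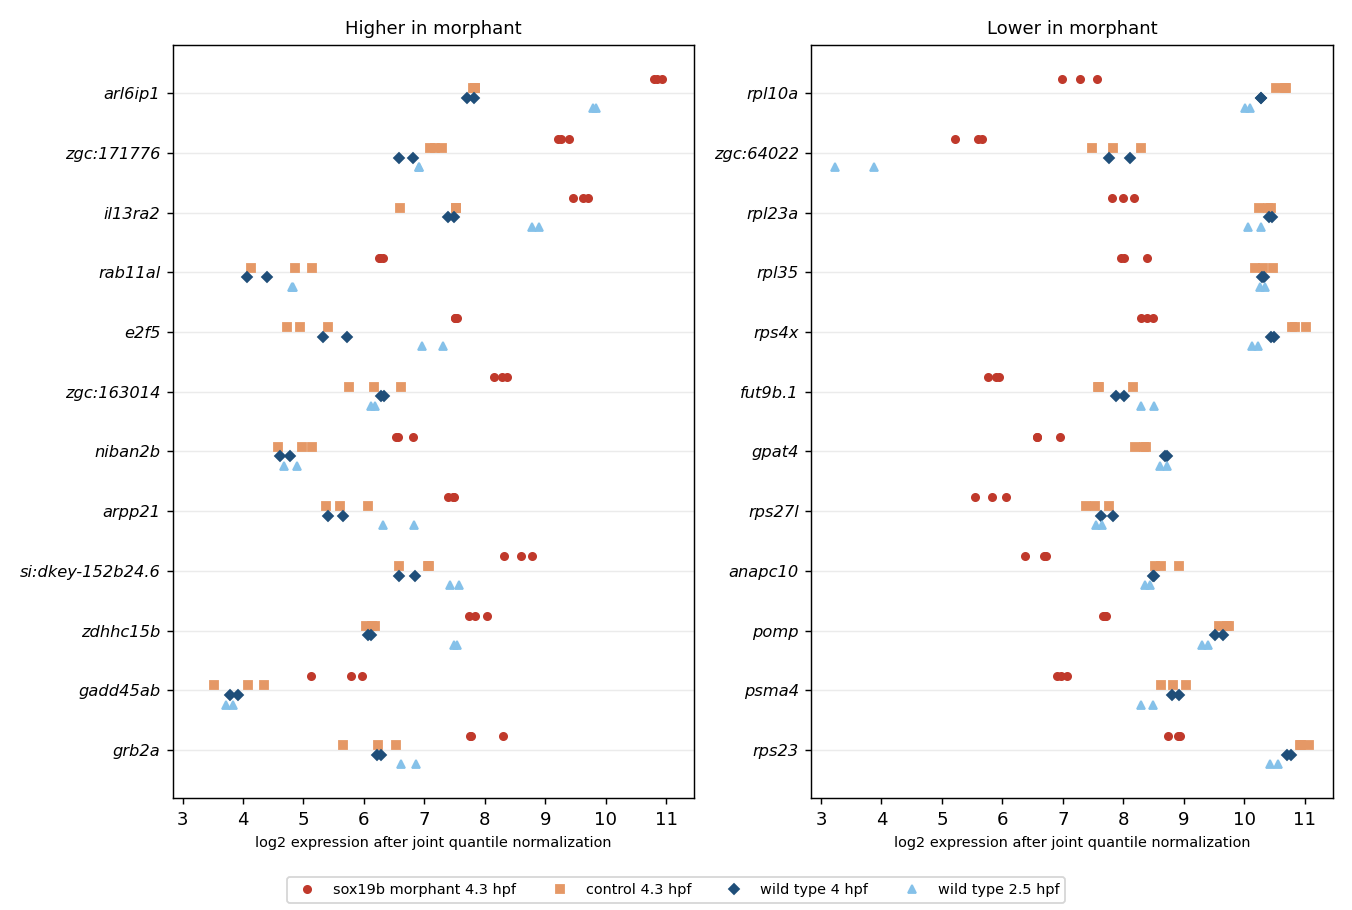
Log2 expression (horizontal axis, joint quantile normalization) of the 12 genes with the largest rise (left) and the 12 with the largest fall (right) in sox19b morphants relative to wild type at 4 hpf, among genes whose control mean lay within 0.5 of wild type. Each point is 1 array, with morphants above, then controls, wild type at 4 hpf and wild type at 2.5 hpf. All morphant arrays of each gene lie on one side of both wild type 4 hpf arrays, as the choice of the genes required.

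Among the falls, rpl10a, which encodes a protein of the large ribosomal subunit, came first. It read 7.29, 7.57 and 6.98 in morphants, 10.52, 10.67 and 10.69 in controls and 10.27 in both wild type 4 hpf arrays. The fall was 2.99 on the log2 scale, written -2.99 (SE 0.14, adjusted p = 1.34e-08), or 7.94-fold, and no morphant array came near either other group. At 2.5 hpf it read 10.10 and 10.01. Rpl23a and rpl35, of the same subunit, fell by 2.44 and 2.19. Rpl23a read 8.17, 8.0 and 7.82 in morphants, 10.24, 10.45 and 10.40 in controls and 10.41 and 10.46 in wild type. Of the small subunit, rps4x fell by 2.08, rps27l by 1.92 and rps23 by 1.88. Rps4x read 8.49, 8.39 and 8.29 in morphants, 10.79, 10.84 and 11.02 in controls and 10.49 and 10.45 in wild type. These genes were at about 10 or above in wild type except rps27l, which read 7.83 and 7.64 there and 5.83, 6.07 and 5.55 in morphants.

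Over the whole family of cytosolic ribosomal proteins, 47 of 72 measured genes (65.3%, against 32.2% of all genes) were lower in morphants than in wild type and 5 (6.94%, against 28.1%) were higher. Of the 47, 15 fell by at least 2-fold, and none of the 5 rose that far. The median difference was -0.54, and -0.55 without wild type 4 hpf replicate 1. It was 0.15 after median centring and 0.50 after Bacillus scaling, which turn its sign. Under those scalings the median over the 5909 genes above background in either group moved as well, to 0.49 and 0.83, against 0.02 after joint quantile normalization. All 72 genes of the family are among these, and the family median stayed below theirs in each case. After those scalings it was close to the median over all 8793 genes, which was 0.17 and 0.51. After Bacillus scaling 47 of its genes (65.3%) were called higher and 11 (15.3%) lower, against 57.7% and 18% of all genes. After median centring 31 (43.1%) were higher and 19 (26.4%) lower, against 43.7% and 31.8% of all genes. The excess of lower calls over all genes was thus not seen under those scalings. Of the 5909 genes above background, 77.3% were higher after Bacillus scaling and 61.1% after median centring, more than in the family. Of the same 5909 genes, 399 were lower after Bacillus scaling and 798 after median centring, smaller shares than in the family. Against genes above background, an excess of lower calls in the family thus remained. After median and MAD scaling 62 of the 72 genes (86.1%) were lower, against 34.3% of all genes, with a family median of -0.84. In control embryos 38 of the 72 genes were higher than in wild type at 4 hpf and 2 were lower, with a median of 0.24. Within experiment 1, 67 of the 72 were lower in morphants than in controls and none was higher. The largest rises over wild type were those of rpl12, by 0.65 (-0.02 after median and MAD scaling), and rpl22l1, by 0.62, both from the large subunit. Whether probes also bind near-identical copies of these genes was not analysed here.

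The proteasome, which degrades proteins tagged with ubiquitin, held further falls of like size. Pomp, an assembly factor of the complex, read 7.70, 7.72 and 7.67 in morphants, 9.59, 9.71 and 9.76 in controls and 9.52 and 9.64 in wild type at 4 hpf, a fall of 1.88 (SE 0.09, adjusted p = 1.69e-08). Psma4, a subunit of the core particle, read 6.91, 7.07 and 6.98 in morphants, 8.63, 9.04 and 8.82 in controls and 8.81 and 8.92 in wild type, also a fall of 1.88. Of 42 proteasome genes measured, 16 (38.1%, against 32.2% of all genes) were lower and 6 (14.3%, against 28.1%) higher, with 4 and 1 of these past 2-fold. The share that was lower was thus near that over all genes. The median difference of the 42 genes was -0.19, and 0.39 after median centring and 0.74 after Bacillus scaling. It was -0.145 and -0.198 without wild type 4 hpf replicate 1 and 2. Psmd11b, a subunit of the cap, was at least 1.84-fold higher in morphants, at 7.13, 6.15 and 6.84, with controls at 7.31, 7.21 and 7.07 and wild type dim at 4.41 and 4.21. Control embryos had 15 of the 42 genes higher and 8 lower than wild type.

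The other large falls with controls near wild type were in genes of varied roles. The gene zgc:64022 read 5.59, 5.66 and 5.22 in morphants, 8.29, 7.49 and 7.83 in controls and 8.11 and 7.76 in wild type at 4 hpf, a fall of 2.44 (SE 0.24, adjusted p = 3.54e-06). At 2.5 hpf it was dim, at 3.23 and 3.88. Fut9b.1, a fucosyltransferase, fell by 2.08, gpat4, an enzyme of glycerolipid synthesis, by 2.01, and anapc10, a subunit of the anaphase-promoting complex, changed by -1.90. Fut9b.1 read 5.89, 5.94 and 5.76 in morphants, 7.59, 8.16 and 7.60 in controls, 8.01 and 7.87 in wild type at 4 hpf and 8.29 and 8.50 at 2.5 hpf, and the morphant arrays lay below all others.

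The arrays hold 2 probe sets for sox19b itself. The brighter read 9.24, 8.90 and 9.28 in morphants, 8.62, 7.87 and 8.28 in controls and 9.24 and 9.28 in wild type at 4 hpf. Morphant and wild type arrays overlapped, with a difference of -0.12 (SE 0.18, adjusted p = 0.581), while the control mean was lower than wild type by -1.01 (adjusted p = 0.000287). The other probe set read 8.74, 8.49 and 8.76 in morphants and 9.07 and 9.13 in wild type, a difference of -0.44 (SE 0.17, adjusted p = 0.0398), and it was not called without any 1 of the 5 arrays (adjusted p 0.0502 to 0.159). After Bacillus scaling both probe sets were higher in morphants, by 0.88 and 0.545, and after median centring the brighter was, by 0.535. Neither value measures the knockdown, since blocking of splicing need not change how much transcript there is, and where the probes lie relative to the junction was not analysed here.

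Other SoxB1 genes differed in opposite directions. Sox19a, a zygotic SoxB1 factor, read 8.13, 8.10 and 7.61 in morphants, 9.51, 9.83 and 9.54 in controls, and was dim in wild type at 4 hpf, at 5.30 and 5.73. It was at least 4.35-fold higher in morphants than in wild type (adjusted p = 2.81e-07). Sox3 read 6.77, 7.54 and 6.86 in morphants, 10.14, 10.51 and 10.04 in controls and 7.97 and 8.22 in wild type, a fall of 1.04 (SE 0.22, adjusted p = 0.00135) that was not called after Bacillus scaling (-0.245, adjusted p = 0.337). Its other 2 probe sets, dim in both groups, were also lower, by -0.66 and -0.68, and a call of these was lost without wild type 4 hpf replicate 2 (-0.634, adjusted p = 0.0669). The 3 probe sets of sox2 were dim in both groups, and the adjusted p of each was 0.0813, 0.34 and 0.387. These values depended on the arrays and scaling used: fitted on the 5 compared arrays alone, a probe set was called lower (-0.53, adjusted p = 0.0058) and another higher (0.58, adjusted p = 0.000725), and the remaining one was called lower after median centring (-0.51, adjusted p = 0.00377). Of the 3 probe sets of sox1a, 2 were lower in morphants (-0.70 and -0.51), and only the brightest of them was above background in wild type, at 6.24 and 6.10. At the same 2 probe sets controls differed from wild type by -0.64 and -0.34. Nanog, at 11.52, 11.46 and 11.36 in morphants and 10.94 and 10.79 in wild type, was higher by 0.58 (adjusted p = 0.000511), and controls differed from wild type by 0.61. The nanog difference was 0.083 after median and MAD scaling and no longer called (adjusted p = 0.493). Pou5f3 was higher by 0.32 (adjusted p = 0.0235), and controls differed from wild type by 0.88. The pou5f3 call in morphants was lost without morphant replicate 1 (0.25, adjusted p = 0.0873). Without wild type 4 hpf replicate 1 or 2 the difference was 0.376 and 0.265, and no kept call is read from these fits, which leave 1 wild type array. Its direction turned after median and MAD scaling (-0.19, adjusted p = 0.175).

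A list of 49 measured genes of the first zygotic wave moved in both directions. In morphants 28 (57.1%, against 28.1% of all genes) were higher than in wild type at 4 hpf, 18 of them by at least 2-fold, and 9 (18.4%, against 32.2%) were lower. The median difference was 0.58, against -0.04 over all genes, and 0.56 to 1.16 over the other scalings and ranks. It was 0.81 after median centring and 1.16 after Bacillus scaling, against 0.17 and 0.51 over all genes. Over the 5909 genes above background in either group, those medians were 0.49 and 0.83. Under those scalings 29 and 33 of the 49 were higher, against 43.7% and 57.7% of all genes. Of the 5909 genes, 61.1% and 77.3% were higher, more than in the list, where 7 genes were dim in both groups. In controls 41 were higher, 3 were lower and the median difference was 2.35. Against controls of the same experiment, none of the 49 was higher in morphants and 36 were lower. Without morphant replicate 3 the median difference from wild type was 0.78.

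Noto, a homeobox gene of the future notochord, read 8.50, 8.80 and 8.22 in morphants, 9.47, 9.23 and 9.37 in controls and 4.51 and 4.37 in wild type at 4 hpf, where it was dim. It was at least 6.42-fold higher in morphants than in wild type (adjusted p = 4.22e-09), and the morphant arrays lay between the other groups. Foxd3, a forkhead factor, read 8.12, 8.11 and 8.04 in morphants, 7.85, 7.96 and 7.84 in controls and 4.96 and 5.30 in wild type, at least 4.8-fold higher in morphants. Here morphants stood just above controls.

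The genes of this wave that were lower include transcription factors that had already come up in wild type embryos by 4 hpf. Klf17, a Krüppel-like factor, read 6.89, 7.50 and 6.91 in morphants, 9.22, 9.37 and 9.48 in controls, 8.85 and 8.83 in wild type at 4 hpf and 5.45 and 5.02 at 2.5 hpf. It fell by 1.74 relative to wild type at 4 hpf (SE 0.18, adjusted p = 6.04e-06), and the morphant arrays lay between both stages of wild type. Her5, a hairy-related repressor, read 5.98, 6.31 and 5.73 in morphants, 8.97, 8.21 and 8.56 in controls, 7.62 and 7.64 in wild type at 4 hpf and 4.38 and 4.35 at 2.5 hpf, a fall of 1.63 (SE 0.20, adjusted p = 2.04e-05). Irx7, an Iroquois homeobox factor, was at 7.05, 6.94 and 6.33 in morphants, 7.74, 7.78 and 7.35 in controls and 8.28 and 8.05 in wild type, a fall of 1.39 (SE 0.19). The zgc:64022 transcript, given above, showed the largest fall of the list.

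**Figure D3:**
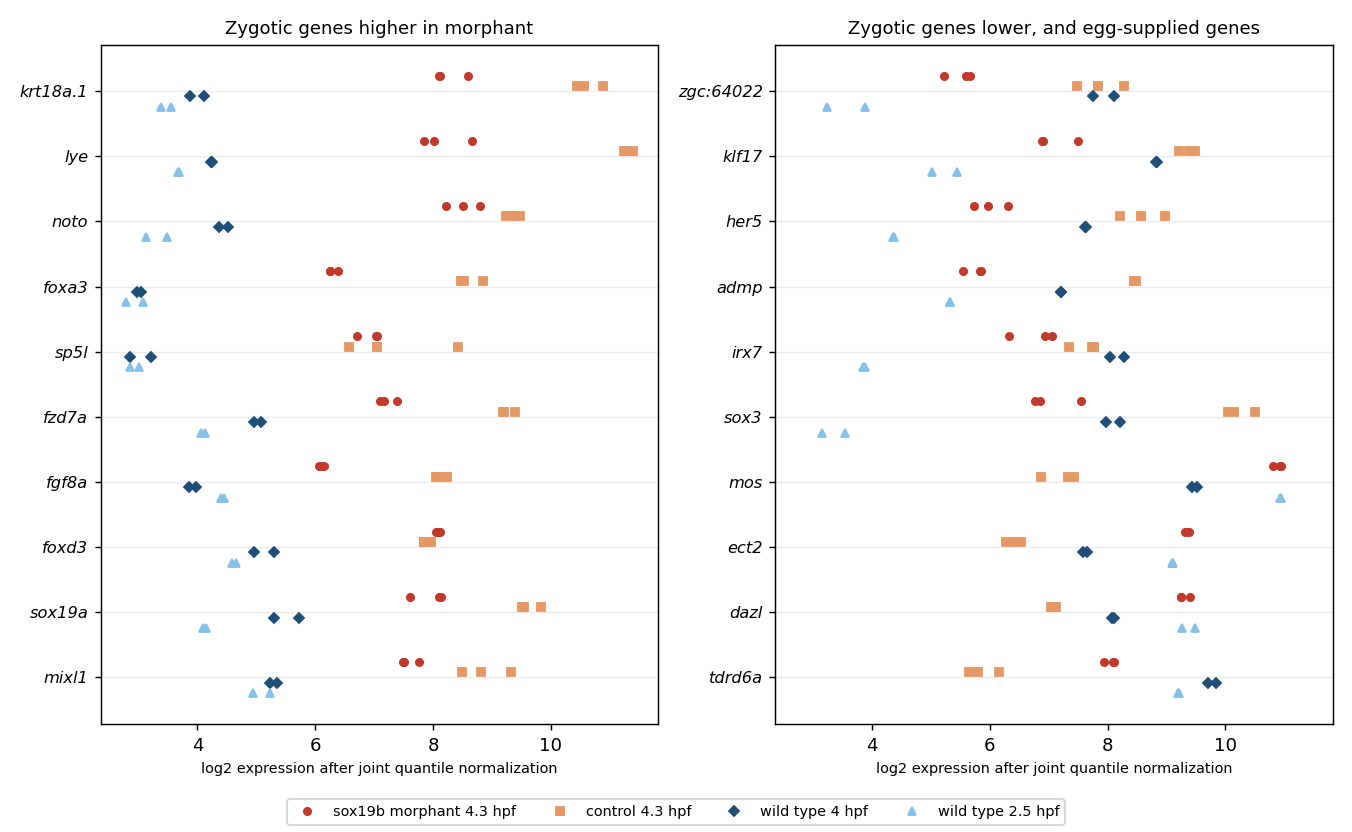
Log2 expression (horizontal axis, joint quantile normalization) of zygotic genes higher in sox19b morphants than in wild type at 4 hpf (left), and of zygotic genes lower in morphants followed by the egg-supplied genes mos, ect2, dazl and tdrd6a (right). Each point is 1 array, with morphants above, then controls, wild type at 4 hpf and wild type at 2.5 hpf. On the left, wild type arrays of both stages lie at the low end, and on the right the 6 zygotic genes have morphants below both controls and wild type at 4 hpf.

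Signals that pattern the germ layers were read from further lists, whose shares are set against 28.1% higher and 32.2% lower over all genes. Of 35 Nodal and mesendoderm genes, 16 (45.7%) were higher in morphants than in wild type at 4 hpf and 7 (20.0%) lower, with a median of 0.34, while in controls 24 were higher, 7 lower and the median was 1.43. Foxa3, a forkhead factor of endoderm, read 6.39, 6.26 and 6.26 in morphants, 8.48, 8.85 and 8.52 in controls and 3.05 and 2.98 in wild type, at least 1.39-fold higher in morphants. Apela, which encodes the Toddler peptide that guides mesendoderm cells, was dim in morphants, at 5.42, 5.38 and 5.30, with controls at 8.31, 8.41 and 8.61 and wild type at 6.14 and 5.89, at least 1.46-fold lower in morphants than in wild type (adjusted p = 0.000456). Smad2, a transducer of Nodal signals, was lower by -0.73, but its other probe set was higher by 0.56, and the call was lost after median centring (-0.136, adjusted p = 0.466) and after Bacillus scaling (0.21, adjusted p = 0.303).

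For BMP signalling and ventral fate, 13 of 38 genes (34.2%, against 28.1% of all genes) were higher and 9 (23.7%, against 32.2%) lower. Of these, 2 of the 13 and 4 of the 9 were dim in both groups. The median was 0.07, and it was -0.065 without morphant replicate 2. In that fit 9 (23.7%) were higher, against 26.6% of all genes. Without morphant replicate 1 and 3, 12 (31.6%) and 10 (26.3%) were higher, against 25.8% and 26.4%. Without wild type 4 hpf replicate 1, the median was 0.04. In controls 22 were higher, 8 lower and the median was 1.16. Admp, a BMP ligand made on the dorsal side, fell by 1.46 (SE 0.11, adjusted p = 3.68e-07). It read 5.54, 5.84 and 5.86 in morphants, 8.48, 8.46 and 8.45 in controls, 7.20 and 7.21 in wild type at 4 hpf and 5.33 in both arrays at 2.5 hpf. Bmpr1ab, a BMP receptor, was lower by -0.88 (-0.12, adjusted p = 0.416, after Bacillus scaling). Controls were further from wild type at this gene, by -1.62. Foxi1, an ectodermal forkhead factor, was at least 1.5-fold higher. Cdx4, a caudal homeobox factor, was at least 1.2-fold higher (adjusted p = 0.0308). Controls, which share the estimate of spread in this fit, were spread over 4.23, 7.34 and 5.07. The call was lost without any 1 morphant array (adjusted p 0.0519 to 0.0729). It was also lost on within-array ranks (adjusted p = 0.0659) and with trend and robust settings of eBayes (adjusted p = 0.121). It was kept in the fit of the 5 compared arrays alone. Without wild type 4 hpf replicate 1 or 2 the difference was 1.91 and 1.55. These fits leave 1 wild type array, and no kept call is read from them.

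Among 32 genes of the dorsal organiser and the Wnt pathway, 12 (37.5%, against 28.1% of all genes) were higher and 8 (25.0%, against 32.2%) lower. Of these, 1 of the 12 and 6 of the 8 were dim in both groups. The median was 0.16, and in controls 18 were higher, 7 lower and the median was 0.48. Without wild type 4 hpf replicate 1, the median in morphants was 0.21. Sp5l, a target of Wnt signals, read 7.05, 7.03 and 6.71 in morphants, 6.58, 8.42 and 7.05 in controls and 3.22 and 2.85 in wild type, at least 2.15-fold higher in morphants. Fzd7a, a Wnt receptor, was at least 2.62-fold higher. Sinup, a nuclear modulator of Wnt signals, fell by 1.24 in morphants, and controls were lower still, at 8.02, 7.22 and 7.67. The fall in morphants was not called after median centring (-0.54, adjusted p = 0.0537) or Bacillus scaling (-0.195, adjusted p = 0.5). Of 17 FGF pathway genes, 9 (52.9%) were higher and 2 (11.8%) lower, with a median of 0.44 and, in controls, 11 higher, 3 lower and a median of 0.53. The ligand gene fgf8a read 6.07, 6.15 and 6.11 in morphants, 8.05, 8.11 and 8.24 in controls and 3.87 and 3.98 in wild type, at least 1.22-fold higher in morphants. Etv4, a transcription factor induced by FGF, was lower by -0.62, a call lost after median centring (-0.23, adjusted p = 0.197) and after Bacillus scaling (0.115, adjusted p = 0.492).

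The enveloping layer, the outer epithelium of the blastula, is known for its keratins. Krt18a.1 read 8.12, 8.60 and 8.10 in morphants, 10.44, 10.88 and 10.57 in controls and 4.11 and 3.88 in wild type at 4 hpf, at least 5.45-fold higher in morphants (adjusted p = 4.11e-09). Lye, which encodes a surface protein of this layer, read 8.02, 8.67 and 7.84 in morphants, 11.25, 11.39 and 11.31 in controls and 4.23 and 4.24 in wild type, at least 5.1-fold higher in morphants. Of 36 genes of the layer, 16 (44.4%) were higher, 9 of them by at least 2-fold, and 10 (27.8%) were lower, with a median of 0.24 that became -0.095 after median centring. In both groups 24 of the 36 were dim, among them 9 of the 16 higher and 6 of the 10 lower. Of the 12 above background in either group, 7 were higher and 4 lower, with a median of 1.01. In controls 19 of the 36 genes of the layer were higher, 8 lower and the median was 0.78. Of its 7 defining markers measured, 3 were above background in morphants (krt4, krt8 and krt18a.1), 6 in controls and none in wild type at 4 or 2.5 hpf, and their summed level was 35.8 to 38.7 in morphants, 55.6 to 58.9 in controls and 26.1 in wild type at 4 hpf. In whole embryos, fewer cells of a type and less RNA per cell cannot be told apart. Cldn7b, a claudin already present at 2.5 hpf, was lower in morphants by -0.99, a call lost after median centring (-0.292, adjusted p = 0.0956) and after Bacillus scaling (0.05, adjusted p = 0.772).

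The yolk syncytial layer, the tissue between yolk and blastoderm, had 5 of 24 genes (20.8%) higher and 10 (41.7%) lower, with a median of -0.13, or 0.035 over its 7 genes above background. Of the 10 lower, 9 were dim in both groups. The median over the 24 genes was -0.15 without either 1 of the wild type 4 hpf arrays. Without morphant replicate 2, 7 (29.2%) were lower, against 30.5% of all genes. Without morphant replicate 1 and 3, 8 (33.3%) and 9 (37.5%) were lower, against 28.8% and 30.3%. Controls had 11 genes higher and 6 lower, with a median of 0.29. Mixl1, a homeobox gene of this layer and the margin, read 7.77, 7.51 and 7.49 in morphants, 8.81, 9.32 and 8.48 in controls and 5.36 and 5.24 in wild type, at least 3.39-fold higher in morphants. Apoeb, an apolipoprotein gene, read 8.95, 9.56 and 8.55 in morphants, 10.92, 11.36 and 10.89 in controls and 7.93 and 7.84 in wild type, a rise of 1.14. Of 8 defining markers, 3 were above background in morphants, 8 in controls and 2 in wild type at 4 hpf, with sums of 44.3 to 46.7, 61.6 to 67.0 and 41.3 to 43.0.

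Of 34 genes of adhesion, epiboly and actin, 14 (41.2%) were higher and 7 (20.6%) lower, with a median of 0.04 (-0.025 after median and MAD scaling). In controls 20 were higher, 6 lower and the median was 0.53. Profilin gene pfn1, whose product binds actin, read 9.41, 9.49 and 9.48 in morphants, 9.91, 10.18 and 10.01 in controls and 7.86 and 7.93 in wild type, a rise of 1.56. Snai2, a repressor of cadherins, was lower by -0.61 at one probe set, and another, dim, was higher by 0.50. The fall was not called after median centring (-0.397, adjusted p = 0.0637), after Bacillus scaling (-0.052, adjusted p = 0.812) or without wild type 4 hpf replicate 1 (-0.516, adjusted p = 0.0758). Among 45 neural plate genes, 15 (33.3%) were higher and 21 (46.7%) lower, with a median of -0.23, but 15 of the lower ones were dim in both groups and the median over the 16 genes above background was 0.44. Without wild type 4 hpf replicate 2, the median over the 45 genes was -0.24. The lower count was 17 (37.8%) without morphant replicate 1 or 2, against 28.8% and 30.5% of all genes, and 21 without replicate 3. Controls had 12 neural plate genes higher and 19 lower, with a median of -0.17. Zic2a, a zinc finger factor, was at least 1.09-fold higher in morphants by its brighter probe set, and the other, at -0.09, was not called. Of 20 retinoic acid and hox genes, 4 were higher and 9 lower (8 of the 9 dim in both groups), with a median of -0.27, or 0.24 over 4 genes above background, and in controls the counts were also 4 and 9, with a median of -0.28. Cyp26a1, which degrades retinoic acid, rose by 0.82, at 8.30, 8.38 and 8.36 in morphants, 9.33, 8.80 and 9.41 in controls and 7.53 and 7.52 in wild type.

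Transcripts supplied by the egg stood on both sides of wild type. Mos, a kinase that holds the egg in meiosis, read 10.92, 10.81 and 10.94 in morphants, 7.42, 6.88 and 7.33 in controls and 9.52 and 9.44 in wild type at 4 hpf, a rise of 1.41 relative to wild type (SE 0.14, adjusted p = 4.41e-06). The morphant arrays were the highest of these groups and the controls the lowest, and at 2.5 hpf it read 10.95 and 10.92, overlapping the morphants. Ect2, a regulator of cytokinesis, read 9.31, 9.34 and 9.39 in morphants, 6.53, 6.28 and 6.43 in controls and 7.66 and 7.58 in wild type, a rise of 1.73 (SE 0.10, adjusted p = 4.31e-08), with 9.11 and 9.10 at 2.5 hpf. Cpeb1b, which controls polyadenylation of stored mRNA, rose by 1.14, with controls at wild type level (7.96, 7.68 and 7.96 against 7.70 and 7.95). Zar1, an oocyte factor, read 7.84, 7.98 and 8.01 in morphants, 8.21, 8.09 and 8.33 in controls and 9.52 and 9.67 in wild type, a fall of 1.65. Patl2, a translational repressor of oocytes, fell by 1.55, and this call was lost after Bacillus scaling (-0.52, adjusted p = 0.0512).

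Of 38 oocyte genes, 12 (31.6%) were higher and 10 (26.3%) lower in morphants, close to the shares over all genes. The median was 0.06, which turned to -0.38 after median and MAD scaling and was -0.005 without morphant replicate 2. It was 0.016 and 0.015 without wild type 4 hpf replicate 1 and 2. In controls 4 were higher and 27 lower than in the same wild type arrays, with a median of -1.08, and within experiment 1 the 38 genes had 29 higher and 3 lower in morphants than in controls. The 5 oocyte markers measured were above background in each group, with sums of 53.1 to 53.2 in morphants, 41.3 to 43.7 in controls and 50.5 to 50.8 in wild type at 4 hpf.

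Germ plasm, the egg material inherited by the germ cells, had 3 of 19 genes (15.8%) higher and 10 (52.6%) lower, with a median of -0.33. This median turned to 0.22 after median centring and 0.57 after Bacillus scaling. Under those scalings the median over all genes was 0.17 and 0.51. Over the 5909 genes above background in either group, which hold 18 of the 19, it was 0.49 and 0.83. Without morphant replicate 2, 7 (36.8%) were lower, against 30.5% of all genes in that fit, and without morphant replicate 1 or 3 the count stayed at 10. The median was -0.255 and -0.351 without wild type 4 hpf replicate 1 and 2, fits that leave 1 wild type array. In controls 3 were higher and 13 lower, with a median of -0.62. Dazl, an RNA-binding protein gene of germ cells, read 9.25, 9.41 and 9.24 in morphants, 7.12, 7.04 and 7.06 in controls and 8.08 and 8.11 in wild type at 4 hpf, a rise of 1.2 (SE 0.10, adjusted p = 1.01e-06). At 2.5 hpf it read 9.27 and 9.48, overlapping the morphants. Dnd1, which protects germ cell mRNA from microRNA, rose by 1.24, with both of its probe sets higher. Tdrd6a, a Tudor domain protein gene of the germ plasm, went the other way, at 8.09, 7.94 and 8.12 in morphants, 6.17, 5.65 and 5.80 in controls and 9.84 and 9.70 in wild type, a fall of 1.72 (SE 0.14, adjusted p = 7.23e-07). All 6 germ plasm markers measured were above background in each group, with sums of 57.2 to 58.1 in morphants, 48.6 to 50.3 in controls and 55.6 to 55.8 in wild type at 4 hpf.

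Of 44 genes that clear or deadenylate mRNA, 14 were higher and 14 lower (31.8% each), with a median of 0.03, which was -0.027 after median and MAD scaling and -0.017 in the fit with a replicate block. Controls had 18 higher and 17 lower, with a median of 0.04. The exonuclease gene xrn1 rose by 1.60 and the decapping enzyme gene dcp2 by 1.29, while dcp1a, the partner of the decapping enzyme, was at least 3.3-fold lower in morphants. Xrn1 read 8.19, 8.20 and 8.28 in morphants, 8.28, 8.52 and 8.35 in controls and 6.44 and 6.80 in wild type, so that controls stood with morphants.

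Wherever the control arrays stood, the 6 largest remaining differences in each direction included several at which controls lay close to morphants. Rab5b, a GTPase of early endosomes, read 8.67, 8.76 and 8.38 in morphants, 8.55, 8.55 and 8.63 in controls and 3.69 and 3.54 in wild type at 4 hpf, at least 6.85-fold higher in morphants than in wild type. Morphant and control arrays overlapped and both wild type arrays were dim. The bound was 6.53-fold for txnipa, an inhibitor of thioredoxin, 5.63-fold for isg15, a ubiquitin-like protein gene induced by interferon, and 2.14-fold for zgc:112271, whose other probe set, at 0.10, was not called. Isg15 read 8.31, 8.39 and 8.27 in morphants, 8.52, 8.25 and 8.25 in controls and 4.18 and 4.35 in wild type. In the other direction tmem101, a membrane protein gene, read 2.42, 3.03 and 2.33 in morphants, 2.97, 3.60 and 2.65 in controls and 7.31 and 7.19 in wild type, at least 3.44-fold lower in morphants. Wu:fb63a08 was at least 3.9-fold lower, with morphants at 4.76, 4.67 and 4.37 and controls at 4.60, 4.53 and 4.52. Adnp2a, a homeobox gene, fell by 2.83, with morphants at 5.98, 5.92 and 5.86, controls lower still at 5.26, 5.02 and 5.23 and wild type at 8.63 and 8.86.

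At 3 of these genes the controls stood between morphants and wild type. Ddx52, an RNA helicase of ribosome assembly, read 5.46, 5.15 and 5.51 in morphants, 6.42, 5.86 and 6.35 in controls and 8.61 and 8.49 in wild type, at least 8.43-fold lower in morphants. Tuba5, an alpha tubulin gene, read 6.55, 6.76 and 6.58 in morphants, 8.52, 8.79 and 8.63 in controls and 9.49 and 9.51 in wild type, a fall of 2.87 (SE 0.10, adjusted p = 2.58e-09). Lamtor2, a subunit of the complex that anchors mTOR signalling to lysosomes, fell by 2.83, and its other probe set read -2.58.

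Genes of RNA processing and of protein synthesis beyond the cytosolic ribosome were read from 4 lists. Of 97 splicing genes, 44 (45.4%) were higher and 22 (22.7%) lower, with a median of 0.18 that was -0.02 after median and MAD scaling, and in controls 72 were higher, 6 lower and the median was 0.64. Sf3a2, a component of the spliceosome, fell by 1.34, at 8.16, 8.36 and 8.03 in morphants, 9.96, 10.03 and 9.91 in controls and 9.56 and 9.50 in wild type. Of 80 genes of ribosome biogenesis, 20 (25.0%) were higher and 27 (33.8%) lower (median -0.06, or 0.41 after median centring and 0.76 after Bacillus scaling), and in controls 40 were higher, 15 lower and the median was 0.29. Nifk, a nucleolar protein gene, rose by 2.12, with morphants at 8.62, 8.87 and 8.83, controls at 9.31, 9.80 and 9.42 and wild type at 6.63 and 6.67. Dhx37, a helicase of ribosome assembly, fell by 2.03, with morphants at 5.78, 5.75 and 5.85, controls between at 7.07, 7.03 and 6.97 and wild type at 7.91 and 7.74. Translation factors were higher and lower in equal number, 20 each of 54 (37.0% each, against 28.1% and 32.2% of all genes). Their median was -0.05, or 0.49 and 0.83 after those scalings, with 25 higher, 21 lower and a median of 0.20 in controls. Mitochondrial ribosomal proteins, encoded in the nucleus for another ribosome, had 19 of 58 (32.8%) higher and 20 (34.5%) lower, also near the shares over all genes. The lower count was 13 without morphant replicate 1 or 3. The median was -0.07, or 0.36 and 0.70 after those scalings, and -0.04 and -0.05 without wild type 4 hpf replicate 1 and 2. In controls 18 were higher and 25 lower, with a median of -0.12.

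Lists for metabolism, division, DNA replication and chromatin followed. Of 74 genes of oxidative phosphorylation, 22 (29.7%) were higher and 28 (37.8%) lower, with a median of -0.0016, 0.49 after median centring and 0.84 after Bacillus scaling, and in controls 17 were higher and 34 lower. Subunits of the same ATP synthase moved in opposite directions: atp5mc3a rose by 1.97, while atp5pd and atp5mc1 fell by 2.08 and 1.85. Of 72 cell cycle genes, 18 (25.0%) were higher and 19 (26.4%) lower (median -0.02, or 0.49 and 0.84 after those scalings and 0.005 without morphant replicate 2), and in controls 19 were higher and 38 lower, with a median of -0.32. Ccni, a cyclin gene, fell by 2.55, at 6.08, 6.52 and 6.01 in morphants, 8.02, 8.13 and 7.72 in controls and 8.87 and 8.64 in wild type. Of 54 DNA replication genes, 24 (44.4%) were higher and 16 (29.6%) lower, with a median of 0.15. Without either 1 of the wild type 4 hpf arrays 12 (22.2%) were higher and 11 (20.4%) lower, where 22.2% to 22.5% of all genes were higher, and after median and MAD scaling 16 were higher and 21 lower. In controls 17 were higher and 24 lower, with a median of -0.14. Pold2, a subunit of DNA polymerase delta, fell by 2.35, at 5.90, 5.98 and 6.12 in morphants, 7.04, 6.92 and 6.98 in controls and 8.31 and 8.39 in wild type. Rpa2, a subunit of the protein that binds single-stranded DNA, fell by 1.56, with morphants at 6.64, 6.78 and 6.56, controls at 8.27, 8.18 and 8.08 and wild type at 8.07 and 8.36. Of 53 chromatin and DNA methylation genes, 21 (39.6%) were higher and 12 (22.6%) lower (median 0.18, or -0.04 after median and MAD scaling, 0.09 without morphant replicate 1 and 0.093 without wild type 4 hpf replicate 1), and in controls 26 were higher and 19 lower. Setdb1a, a histone methyltransferase gene, rose by 1.33, at 9.44, 9.43 and 9.63 in morphants, 7.80, 7.50 and 7.73 in controls and 8.15 and 8.18 in wild type. Its other probe set, at -0.22, was not called.

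Genes of the p53 pathway and of stress were also measured. Of 37 p53 and apoptosis genes, 18 (48.6%) were higher, 9 of them by at least 2-fold, and 6 (16.2%) lower, with a median of 0.27, and in controls 16 were higher and 12 lower, with a median of 0.12. Gadd45aa, a target of p53, read 6.73, 6.24 and 6.40 in morphants and was dim in controls, at 5.33, 4.76 and 5.13, and in wild type at 4 hpf, at 2.91 and 3.22, at least 1.55-fold higher in morphants than in wild type. Bbc3, which encodes the death-promoting protein Puma, was at least 1.41-fold higher, at 6.31, 6.22 and 6.43 in morphants, 6.34, 5.96 and 6.09 in controls and 3.38 and 3.58 in wild type. Of 56 heat shock, chaperone and stress genes, 26 (46.4%) were higher and 15 (26.8%) lower, with a median of 0.21 (-0.005 after median and MAD scaling), and in controls the counts were also 26 and 15. Hsp90b1, a chaperone of the endoplasmic reticulum, fell by 1.91, at 8.23, 8.09 and 8.22 in morphants, 9.55, 9.30 and 9.52 in controls and 10.09 in both wild type arrays.

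Genes of differentiated tissues that the blastula does not yet have were mostly at background. Of 62 such genes, 43 (69.4%) were lower and 4 (6.45%) higher, with a median of -0.42, and 51 were dim in both groups, among them 33 of the 43. The 51 dim genes had a median of -0.35, and of the 11 above background in either group 10 were lower and none higher, with a median of -0.78. Controls had 42 lower and 5 higher, with a median of -0.48. The median of the tag probe sets, which have no zebrafish target, was 3.95 in morphants, 3.95 in controls and 4.32 in wild type at 4 hpf, a gap in the same direction whose part in these calls was not tested. Crystallin gene cryaa, the largest fall, read 4.56, 4.64 and 4.60 in morphants, 4.79, 4.51 and 4.58 in controls and 5.78 and 5.66 in wild type, dim in each group. Of 14 markers of late tissues measured, 2 were above background in morphants, 5 in controls and 5 in wild type at 4 hpf.

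**Figure D4:**
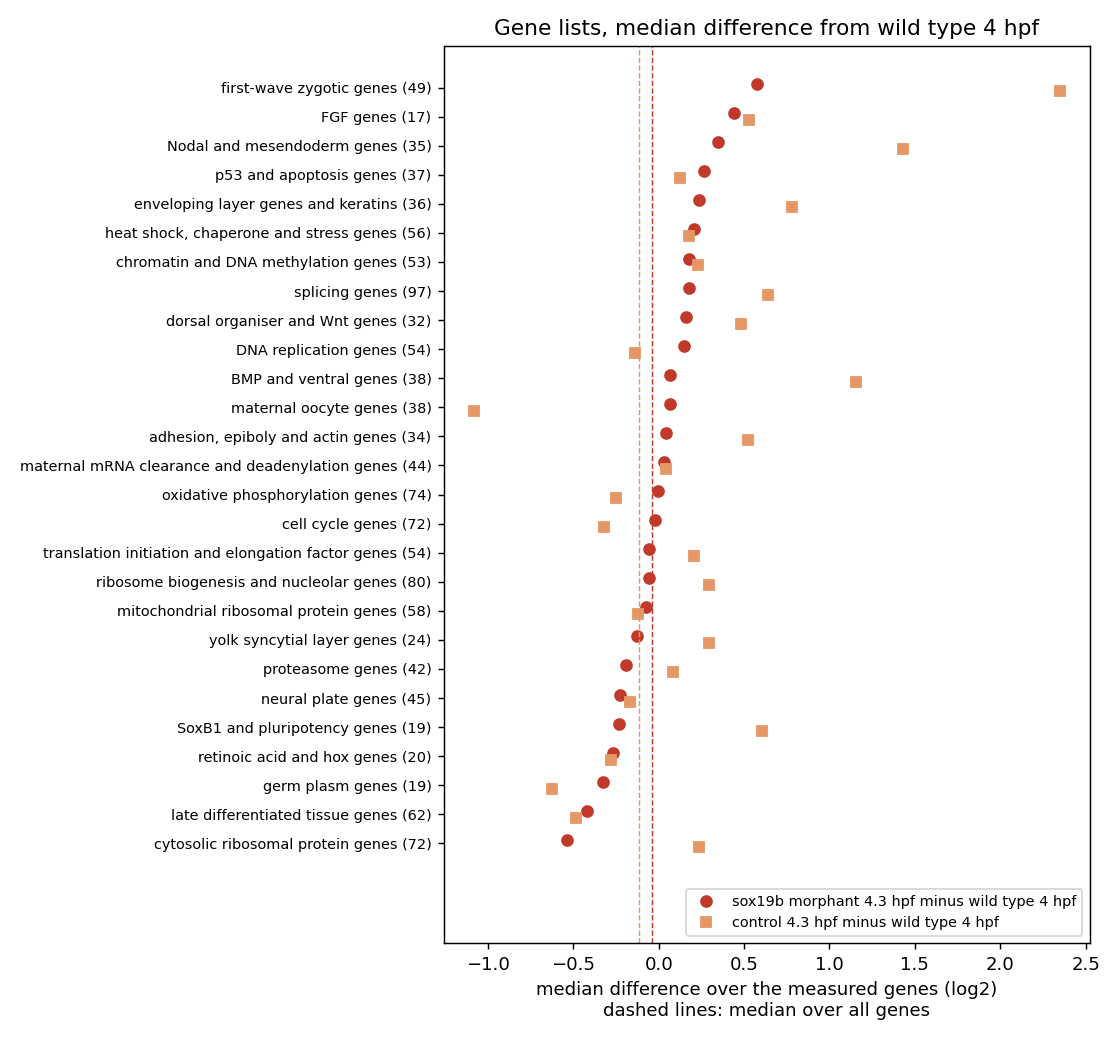
Median log2 difference from wild type at 4 hpf over the measured genes of each list (number in parentheses), for sox19b morphants (circles) and for controls at 4.3 hpf (squares), after joint quantile normalization, with the medians over all genes dashed. Both sets of points share the wild type 4 hpf arrays. Cytosolic ribosomal protein genes lie lowest for morphants (-0.54, but 0.15 after median centring and 0.50 after Bacillus scaling) and first-wave zygotic genes highest (0.58), and other medians near 0 also turn under some scalings, as given beside each list.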

How the data were processed

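Expression was measured on 10 arrays with 1 channel each. Per the submitters' processing notes, the deposited log2 values were made with the affy package and RMA (robust multi-array average). Their versions were not stated. The sorted deposited values of any 2 arrays differed by at most 0.362 within experiment 1, 0.194 within experiment 2 and 1.52 between them, so the experiments were treated as normalized apart. All 15617 probe sets of the 10 arrays were quantile normalized together, and a single model with 4 groups was fitted to 15502 of them with limma 3.58.1 in R 4.3.3 (lmFit and eBayes, two-sided), with 6 residual and 6.1 prior degrees of freedom. Probe sets were called where the p-value, adjusted by Benjamini-Hochberg over all 15502, was below 0.05. Arrays give no counts, so their number limits the precision. Data were also simulated on the normalized scale, with independent noise, few changed probe sets and no difference between experiments. There 88 of 100 probe sets changed by 1 (log2) and 99 of 100 changed by 2 were recovered, with 5 false calls. These counts do not cover calls that come from the difference between experiments. Plots used Python 3.11.15 with matplotlib 3.10.9.

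The array annotation gave 1 gene for 10795 probe sets, several for 135 and none for 4572, and 10711 were matched by Entrez identifier to RefSeq gene names of assembly GRCz12tu, with 1 symbol replaced. No genome sequence was used. The 27 gene lists held 1261 measured entries, with 83 genes in several lists. Named genes are the 12 largest differences in each direction with a control mean within 0.5 of wild type at 4 hpf, the 6 largest others, the 2 largest in each direction of each list, and the SoxB1 genes, pou5f3 and nanog. The members and lists were chosen with earlier results of these data known. Alternatives were within-array ranks, median centring, median and MAD scaling, scaling on 27 Bacillus control probe sets, the 5 arrays alone, eBayes with trend and robust settings, only probe sets above background and a replicate block. The morphant arrays, the wild type 4 hpf arrays and control replicate 2 were also left out 1 at a time. Joint quantile normalization of the 5 arrays alone was added after seeing the data.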

Additional observations from a re-analysis of the deposited data

How the results depend on the processing

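The counts of called probe sets depended most on scaling and on the filter for dim probe sets. Against 9057 called probe sets, 5373 of the 8541 above background were called, with 2558 of them lower, and the control comparison with wild type at 4 hpf had 6550 in place of 10748. After Bacillus scaling, which put the median difference of all probe sets at 0.312 in place of -0.037, 7684 were higher, so that 69.1% of calls were higher against 46.5% before, with 3526 higher and 340 lower by at least 2-fold. Median centring gave 1772 and 1249 at that fold. The arrays left out 1 at a time, here and below, were the morphant arrays, the wild type 4 hpf arrays and control replicate 2. Leaving out 1 array gave 7220 to 9748 called probe sets, 3371 to 4563 higher, 3836 to 5185 lower, 974 to 1090 higher and 746 to 855 lower by at least 2-fold, and 6627 to 7079 between morphants and controls. The control comparison had 10698 without control replicate 2. With a replicate block 8769 probe sets were called. The numbers come from different experiments and do not pair the arrays: deviations from the group means correlated at 0.102 for replicate 1 and -0.0233 for replicate 2. Within-array ranks keep each array's own order and gave 8884.

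Over the 5909 genes above background in either group, the median was 0.834 after Bacillus scaling and 0.488 after median centring. Over all 8793 genes it was 0.514 and 0.168. List medians turned sign as follows. After Bacillus scaling they were 0.333 for SoxB1 and pluripotency genes, 0.566 for germ plasm, 0.497 for cytosolic ribosomal proteins, 0.702 for mitochondrial ribosomal proteins, 0.757 for ribosome biogenesis, 0.833 for translation factors, 0.736 for the proteasome, 0.839 for oxidative phosphorylation and 0.836 for the cell cycle. After median centring they were -0.095 for the enveloping layer, 0.22 for germ plasm, 0.152 for cytosolic and 0.356 for mitochondrial ribosomal proteins, 0.412 for ribosome biogenesis, 0.487 for translation factors, 0.39 for the proteasome, 0.493 for oxidative phosphorylation and 0.491 for the cell cycle. After median and MAD scaling they were -0.025 for adhesion, -0.377 for oocyte genes, -0.027 for mRNA clearance, -0.016 for splicing, -0.005 for heat shock and -0.038 for chromatin. Over probe sets above background they were 0.035 for the yolk syncytial layer, 0.439 for the neural plate and 0.24 for retinoic acid and hox genes, where fewer genes were tested. The replicate block gave -0.017 for mRNA clearance. Over fits without 1 array, the medians ranged from -0.065 to 0.151 for BMP genes, -0.005 to 0.063 for oocyte genes and -0.035 to 0.005 for cell cycle genes, with the turned sign without morphant replicate 2, and from -0.03 to 0.022 for oxidative phosphorylation, with the turned sign without morphant replicate 1, morphant replicate 3 or wild type 4 hpf replicate 1.

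Of 127 genes named from the lists and the largest differences, 112 kept their direction and call after Bacillus scaling, 120 after median centring, 126 after median and MAD scaling and on ranks, and at least 124 without any 1 array. Directions turned after Bacillus scaling for smad2 (0.209), etv4 (0.115), cldn7b (0.053), mrpl12 (0.401) and the sox19b probe sets (0.88 and 0.545), after median centring for mrpl12 (0.055), sox19b (0.535 and 0.199) and 1 sox1a probe set (-0.34), and after median and MAD scaling for rpl12 (-0.022) and pou5f3 (-0.194). The cause of these changes was not tested.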

Other observations

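Many calls lay at background. Of the 8793 genes, 2884 were dim in both morphant and wild type 4 hpf arrays, and 56.5% of these were called, 550 higher and 1080 lower in morphants, against 62.3% of the 5909 genes above background in either group. Different probe sets of 1 gene could also disagree. Calls in opposite directions were found for 208 of the 1539 genes that have more than 1 probe set. Among the named genes these were smad2 (-0.73 and 0.56), snai2 (-0.61 and 0.50) and prpf3, a splicing factor gene (1.24 and -0.55).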
